A study of Mus musculus with 4 samples.

Results

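The genes described here encode the chains of interleukins 12, 23, 27 and 35 and the receptor chains that bind them. The 8 members are Il12a, Il12b, Il23a, Il27, Ebi3, Il12rb1, Il12rb2 and Il23r, chosen for their roles, and all 8 were found by Ensembl identifier among the 48526 genes of the deposited expression table. RNA came from lamina propria mononuclear cells, the immune cell fraction of the connective tissue under the gut epithelium, of mice given CD4 T cells. Recipients of wild-type cells gave 2 samples, and the labels record pronounced colitis there. The other 2 samples followed transfer of Hobit x Blimp DKO cells, which lack a pair of related transcription factors of tissue-resident T cells, and the labels record mild colitis. The 2 groups are called wild type and DKO below. That genotype applies to the transferred cells, while the RNA came from every cell of the preparation. The strain, genotype, age and sex of the recipient mice, the driver of the deletion and whether animals were pooled were not given in the sources used here. The 2 replicates of a group are called biological in the series text, without mention of separate animals, so p-values speak only of these samples. Those from limma do not rest on a gene's own spread alone. That spread is drawn towards the spread of other genes of like level, with 8.9 prior against 2 residual degrees of freedom.

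Members of the interleukin 12 family are secreted pairs of an alpha and a beta chain. Il12a encodes p35, Il23a encodes p19 and Il27 encodes p28, the alpha chains. Il12b encodes p40, the beta chain of both interleukin 12 (with p35) and interleukin 23 (with p19), and Ebi3 encodes the beta chain of interleukin 27 (with p28) and interleukin 35 (with p35). Dendritic cells and other myeloid cells make most interleukin 12, 23 and 27, while interleukin 12 acts on T cells and natural killer cells through Il12rb1 and Il12rb2 and supports interferon gamma production. Interleukin 23 signals through Il12rb1 and Il23r in lymphocytes that make interleukin 17, and it is a known driver of intestinal inflammation.

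The values are rlog, a log2 expression scale that pulls each gene towards its mean, most where reads are few, so the folds given here may be understated. Depth per sample is unknown. The median rlog of the 13528 genes tested lay between 8.33 and 8.35 in the 4 samples. Cells of the blood lineage were plainly present: the pan-leukocyte gene Ptprc stood between 14.02 and 14.26 in the 4 samples. Transcripts of fibroblasts, vessels and epithelium were present as well, with Col3a1 between 13.07 and 14.20 and Epcam between 10.75 and 11.05. Since these are bulk samples, fewer cells of a type and less RNA per cell cannot be told apart.

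Promoter sequences of 5 of the 8 members, in 6 windows, were found in RefSeq on GRCm38.p6. Matching was by symbol, and Il23a, Il27 and Il12rb1 had no entry. The windows of the genes that passed the test between groups are shown, each as the 250 bases before a transcription start, 5′ to 3′ on the strand of the gene. Il12a has 2 starts in that table, of which the second lies in the first intron of the longer transcript. Capitals mark matches, on either strand, to the letters of a motif of a factor family known at such promoters.
Il12b, chr11:44399813-44400062, plus strand: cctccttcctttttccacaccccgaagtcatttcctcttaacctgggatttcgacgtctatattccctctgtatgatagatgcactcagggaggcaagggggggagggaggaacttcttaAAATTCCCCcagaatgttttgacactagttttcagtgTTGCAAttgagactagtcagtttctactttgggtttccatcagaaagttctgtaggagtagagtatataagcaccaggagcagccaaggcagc
Il12a first start, chr3:68690394-68690643, plus strand: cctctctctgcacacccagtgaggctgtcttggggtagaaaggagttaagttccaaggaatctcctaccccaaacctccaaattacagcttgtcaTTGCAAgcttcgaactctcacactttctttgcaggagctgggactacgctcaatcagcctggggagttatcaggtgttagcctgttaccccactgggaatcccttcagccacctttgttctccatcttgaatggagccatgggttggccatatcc
Il12a second start, chr3:68691174-68691423, plus strand: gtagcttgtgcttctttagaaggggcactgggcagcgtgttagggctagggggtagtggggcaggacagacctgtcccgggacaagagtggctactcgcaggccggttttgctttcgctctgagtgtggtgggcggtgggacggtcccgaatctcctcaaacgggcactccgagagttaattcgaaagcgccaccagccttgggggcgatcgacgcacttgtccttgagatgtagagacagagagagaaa
Il12rb2, chr6:67376189-67376438, minus strand: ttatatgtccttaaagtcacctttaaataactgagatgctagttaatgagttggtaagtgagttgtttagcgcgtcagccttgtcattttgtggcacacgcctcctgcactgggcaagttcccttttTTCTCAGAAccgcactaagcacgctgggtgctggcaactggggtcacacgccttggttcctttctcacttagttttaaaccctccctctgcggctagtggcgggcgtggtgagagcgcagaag

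The motifs searched were a consensus of NF-kB, a Rel half-site (GGGGAATTT), AP-1 (TGANTCA), an interferon-stimulated response element (GAAANNGAA), a C/EBP half-site (TTGCAA), a STAT site (TTCNNNGAA) and a TATA box (TATAAA), on both strands. Letters of one motif could overlap another, but no 2 matches overlapped in the windows shown. In the Il12b window the Rel half-site was matched from 130 to 122 bases before the start, a match held by 0.232% of 32817 promoter windows of that length. A C/EBP half-site was matched from 93 to 88 bases before the Il12b start and from 155 to 150 bases before the first Il12a start, and 5.34% of all windows hold one. The window of the second Il12a start held no match. In the Il12rb2 window a STAT site was matched from 123 to 115 bases before the start, against 7.01% of all windows. The NF-kB consensus (in 3.90% of all windows), AP-1 (6.75%) and the interferon-stimulated response element (7.12%) had no match in the windows shown. Of the windows not shown, that of Ebi3 held an NF-kB consensus match from 44 to 35 bases before the start. That of Il23r held no match to any of the motifs. The exact letters TATAAA (12.4%) had none either. The Il12b window does hold tataag near its end, which differs from TATAAA in the last letter only. Such near forms of a TATA box were not searched. The motifs were chosen after the windows were seen, so the shares over all windows do not measure how unusual a match is. These matches describe the letters alone.

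In limma with Benjamini-Hochberg adjustment over all tested genes, 2 of the 8 members rose, 1 fell and 5 did not pass at an adjusted p under 0.05. Over all tested genes 14.8% passed, 9.92% as rises and 4.85% as falls. The members' median difference, DKO minus wild type, was -0.033 on the log2 scale, against -0.022 over all tested genes. All 8 members passed the minimum mean rlog of 4 that was set for testing. The members that passed were the beta chain Il12b (higher in DKO), the alpha chain Il12a (lower) and the receptor chain Il12rb2 (higher). The groups did not overlap in 4 members, these and Ebi3, and so it was in 55.3% of all tested genes. With no filter on low values none of the 3 passed in limma (adjusted p = 0.185 for Il12b, 0.222 for Il12a and 0.137 for Il12rb2). That setting adds low genes to the adjustment and also to the fit, which then estimates the variances anew.

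**Figure D1:**
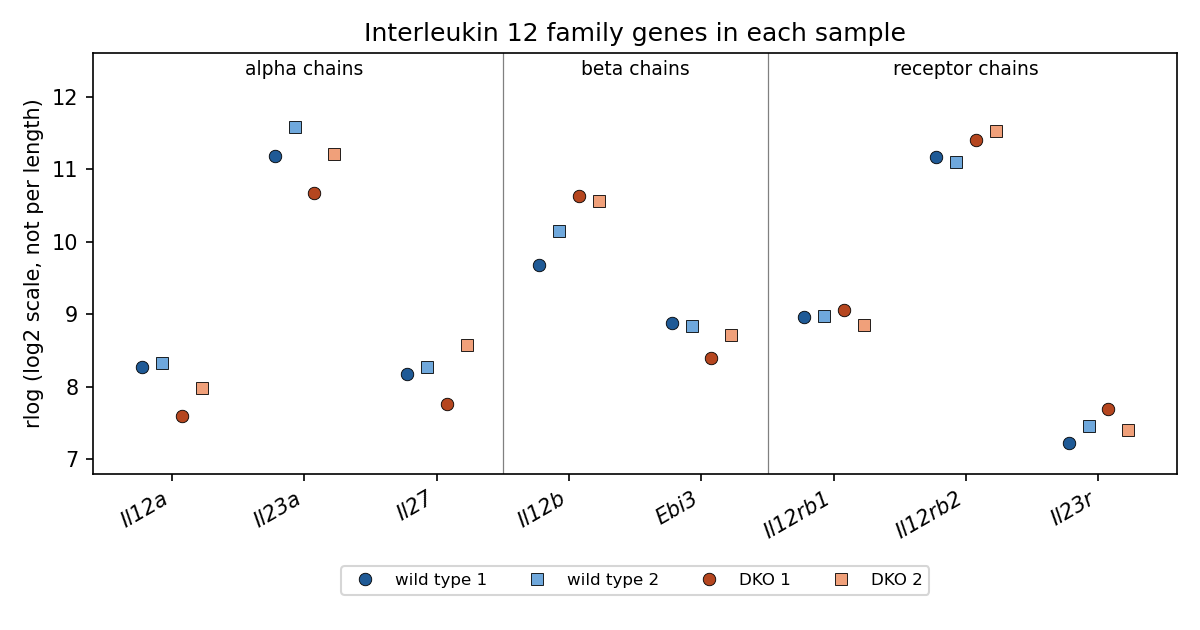
The rlog value of each of the 8 genes (vertical axis, log2 scale, not per length) in the 2 wild-type (blue) and 2 DKO (orange) samples, 1 point a sample. Both DKO points lie above both wild-type points for Il12b and Il12rb2 and below them for Il12a and Ebi3.

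Il12b (ENSMUSG00000004296, GRCm38 chromosome 11, 44400063 to 44414033, plus strand) encodes the chain that interleukins 12 and 23 share. Its rlog values were 9.68 and 10.15 in wild-type replicates 1 and 2, and 10.63 and 10.56 in DKO replicates 1 and 2. Both DKO samples were higher than both wild-type samples, and the wild-type samples lay farther apart than the DKO samples. The group means were 9.91 ± 0.333 (SD, n = 2) and 10.60 ± 0.0506 (SD, n = 2), which is a log2 difference of 0.68 (SE 0.127) or a fold of 1.61. This passed in limma with an adjusted p = 0.00354. The difference was 0.45 without wild-type replicate 1 and 0.92 without wild-type replicate 2. A fit with a sample left out keeps a single sample in that group and takes the gene's own spread from the other group. Its adjusted p, where given below, therefore does not measure the spread of the group with a single sample.

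Il12a (ENSMUSG00000027776, chromosome 3, 68690644 to 68698547, plus strand) encodes the alpha chain of interleukins 12 and 35. It stood at 8.27 and 8.33 in wild type and at 7.59 and 7.99 in DKO. The wild-type samples were close together and above both DKO samples, of which replicate 1 was the lower. The difference of means was -0.51 (SE 0.126), from 8.30 ± 0.0424 (SD, n = 2) to 7.79 ± 0.277 (SD, n = 2), with an adjusted p = 0.0179 in limma. Without DKO replicate 1 it was -0.32 and missed the threshold (adjusted p = 0.0668), as it did when wild-type replicate 2 was left out (-0.48, adjusted p = 0.0594). Over the 11 alternatives its adjusted p ran from 4.19e-05 to 0.222.

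Il23a (ENSMUSG00000025383, chromosome 10, 128296139 to 128298752, minus strand) encodes the alpha chain that joins p40 in interleukin 23. Its values were 11.18 and 11.58 in wild type and 10.67 and 11.21 in DKO. DKO replicate 2 lay between the wild-type samples, so the groups overlapped. The log2 difference was -0.45 (SE 0.162), with an adjusted p = 0.0978 in limma. The difference was -0.65 without wild-type replicate 1 and -0.71 without DKO replicate 2. It was -0.18 without DKO replicate 1 and -0.25 without wild-type replicate 2.

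Il27 (ENSMUSG00000044701, chromosome 7, 126589010 to 126594941, minus strand) encodes the alpha chain of interleukin 27. It was at 8.18 and 8.27 in wild type and at 7.76 and 8.57 in DKO. The DKO samples were the lowest and the highest of the 4, and their gap of 0.807 was the widest within a group among the 8 members. The log2 difference was -0.056 (SE 0.197, adjusted p = 0.903 in limma). Its sign turned with the sample left out: it was 0.35 without DKO replicate 1 and -0.46 without DKO replicate 2. Il27 shares 103 of 1021 exon bases with Apobr on the opposite strand, a gene that fell by 0.39 on the log2 scale (adjusted p = 0.00905). Whether reads were counted by strand was not given in the sources used here.

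Ebi3 (ENSMUSG00000003206, chromosome 17, 55952640 to 55957022, plus strand) encodes the beta chain of interleukins 27 and 35. It was at 8.88 and 8.84 in wild type and at 8.39 and 8.71 in DKO. Both DKO samples were lower than both wild-type samples. The fit gave -0.31 (SE 0.11) for the difference, with an adjusted p = 0.089 in limma. The difference was -0.47 without DKO replicate 2 and -0.15 without DKO replicate 1. Ebi3 shares 270 of 1154 exon bases with the antisense gene Gm16712, which was low, at 1.76 to 1.89 in the 4 samples.

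Of the 5 genes for cytokine chains, Il12a, Il23a, Il27 and Ebi3 had their lowest value of the 4 samples in DKO replicate 1, while Il12b had its highest there. This count of 4 of 5 was noticed in the values and is a description. The fits that leave out DKO replicate 1 therefore gave smaller falls of Il12a, Il23a and Ebi3 than the fits that leave out DKO replicate 2, as the plot of differences shows.

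**Figure D2:**
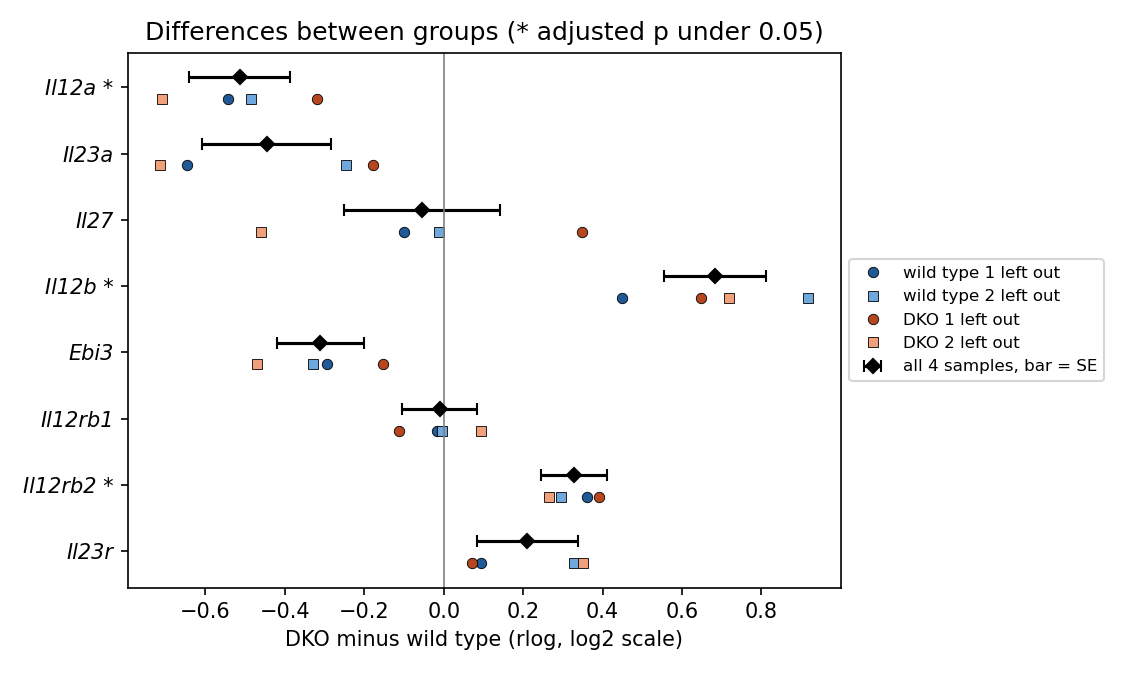
The rlog difference of DKO from wild type (horizontal axis, log2) for each gene, with all 4 samples (black diamonds, bars are the SE of the moderated fit) and with each sample left out in turn (coloured points). The points of Il12b stay above 0 and those of Il12a, Il23a and Ebi3 below 0, while those of Il27 and Il12rb1 fall on both sides.

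The receptor chain Il12rb2 (ENSMUSG00000018341, chromosome 6, 67291318 to 67376188, minus strand) binds interleukin 12 together with Il12rb1 and is induced on activated T cells and natural killer cells. Its values were 11.17 and 11.10 in wild type and 11.40 and 11.53 in DKO. Both groups were tight and did not overlap. The rise of 0.33 (SE 0.0827), a fold of 1.26, had an adjusted p = 0.0205 in limma. With wild-type replicate 1 left out it missed the threshold (0.36, adjusted p = 0.0707), likewise with replicate 2 left out (0.30, adjusted p = 0.186), and over the alternatives its adjusted p was 0.00235 to 0.186. Its exons share 1519 of 3794 bases (40.0%) with Serbp1, an abundant gene for an RNA-binding protein on the opposite strand, at 12.81 and 12.84 in wild type and 12.67 and 12.97 in DKO. Without knowing that counting used strand, reads of the shared bases cannot be assigned, and the level of Il12rb2 is uncertain to that extent. Serbp1 had a log2 difference of -0.0066 (adjusted p = 0.982 in limma).

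Il12rb1 (ENSMUSG00000000791, chromosome 8, 70808449 to 70821424, plus strand), the chain that the receptors of interleukins 12 and 23 share, stood at 8.96 and 8.97 in wild type and at 9.06 and 8.85 in DKO. The wild-type values lay between the DKO values. The log2 difference was -0.01 (SE 0.0943, adjusted p = 0.967 in limma). Il23r (ENSMUSG00000049093, chromosome 6, 67422932 to 67491855, minus strand), the chain specific to interleukin 23, was at 7.22 and 7.46 in wild type and at 7.69 and 7.41 in DKO. The groups overlapped, and their difference was 0.21 (SE 0.127, adjusted p = 0.335 in limma). The size of this difference turned on single samples: it was 0.093 without wild-type replicate 1 and 0.071 without DKO replicate 1, but 0.33 without wild-type replicate 2 and 0.35 without DKO replicate 2 (adjusted p = 0.0649 in limma for the last).

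Taking the chains of a cytokine as pairs within each sample removes any shift of a whole library. The change of a pair between groups is the difference of the first gene minus that of the second. It therefore restates the differences given above and is not separate support for them. Il12b exceeded Il12a by 1.41 and 1.82 in the wild-type samples and by 3.04 and 2.58 in the DKO samples, as differences of rlog. These are not per length, so the size of the excess depends on the lengths of the genes, but its change between groups does not. The excess of the p40 transcript over the p35 transcript was thus greater in both DKO samples. The means were 1.61 ± 0.29 and 2.81 ± 0.328 (SD, n = 2 in each group), a change of 1.2 on the log2 scale or a fold of 2.29. A two-sided exact permutation test gave p = 0.333, the smallest that 2 samples against 2 allow. Without single samples the change was between 0.97 and 1.43.

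For the chains of interleukin 23, Il12b minus Il23a was -1.51 and -1.43 in wild type and -0.04 and -0.64 in DKO. The wild-type samples were close to each other (SD 0.051), and both DKO samples were higher. The change of 1.13 is a fold of 2.19. For interleukin 27, Ebi3 minus Il27 was 0.70 and 0.57 in wild type and 0.63 and 0.14 in DKO, with overlapping groups. For interleukin 35, Ebi3 minus Il12a was 0.61 and 0.51 in wild type and 0.80 and 0.72 in DKO, a change of 0.20. Among receptors, Il12rb2 minus Il12rb1 was 2.21 and 2.13 in wild type and 2.35 and 2.68 in DKO, and Il23r minus Il12rb1 was -1.73 and -1.51 in wild type and -1.37 and -1.44 in DKO. Of the 6 pairs compared, 5 had groups that did not overlap, each at the smallest exact permutation p = 0.333 (0.4 after adjustment over the 6 pairs). With 2 samples against 2 this test cannot give a smaller p. The share over other pairs of genes was not computed. Among single tested genes the groups did not overlap in 55.3%. The pairs also share chains, so they are not independent of each other.

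**Figure D3:**
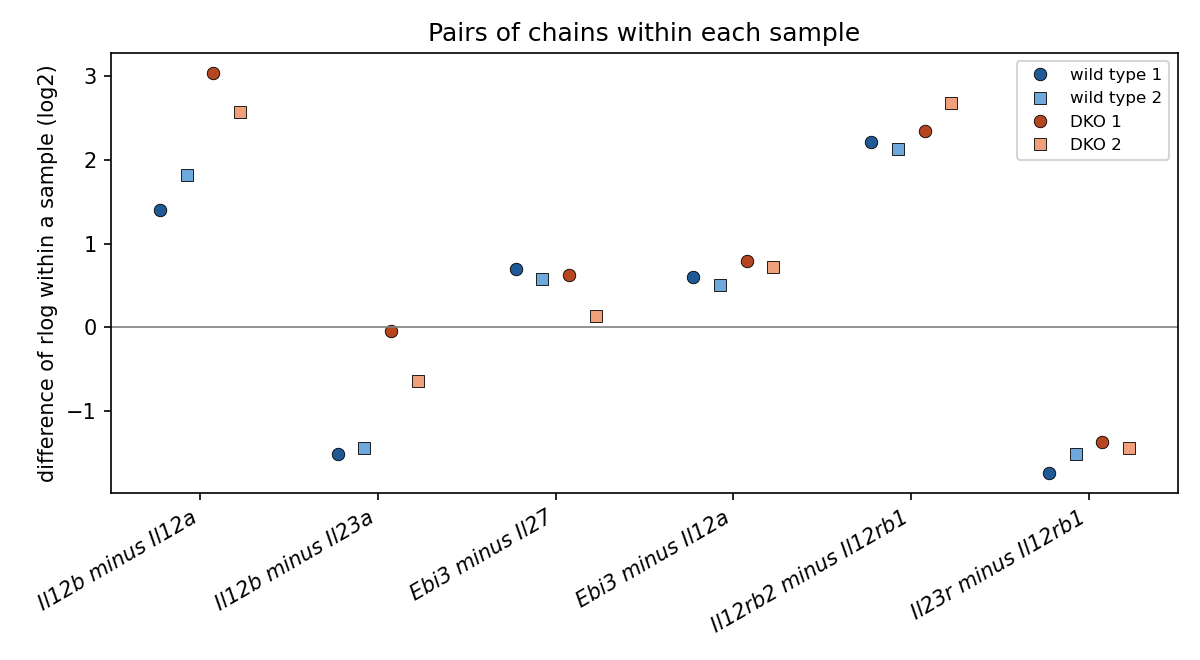
The difference of rlog between 2 chains within a sample (vertical axis, log2 scale, not per length) for 6 pairs, 1 point a sample. For Il12b minus Il12a and Il12b minus Il23a the DKO points (orange) lie above the wild-type points (blue).

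Levels can be set side by side between genes only per length. With rlog reduced by the log2 of the exon length in kb, the order of the means over the 4 samples was Il23a (9.99), Il12rb2 (9.38), Il12b (9.28), Ebi3 (8.50), Il27 (8.17), Il12a (7.28), Il12rb1 (6.92) and Il23r (6.13). On this scale Il23a ranged from 9.50 to 10.42 over the samples and overlapped Il12rb2 (9.18 to 9.61), which overlapped Il12b (8.70 to 9.66). Ebi3 (8.18 to 8.67) and Il27 (7.73 to 8.54) overlapped, as did Il12a (6.83 to 7.57) and Il12rb1 (6.81 to 7.02), while Il23r (5.91 to 6.37) stayed below all the others. Il12b and Ebi3 were apart only narrowly. The place of Il12rb2 is uncertain, since it shares 40.0% of its exon bases with Serbp1 and strand use in counting is unknown. The p19 transcript was thus above the p40 transcript per length in the wild-type samples (10.22 against 8.94 on average), and in DKO the same means were 9.77 and 9.62. This nearness in DKO depends on the length used. With the longest transcript as length, the DKO means were 10.15 for p19 and 9.64 for p40. In each sample the p35 transcript was lower per length than the p19 and p40 transcripts.

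**Figure D4:**
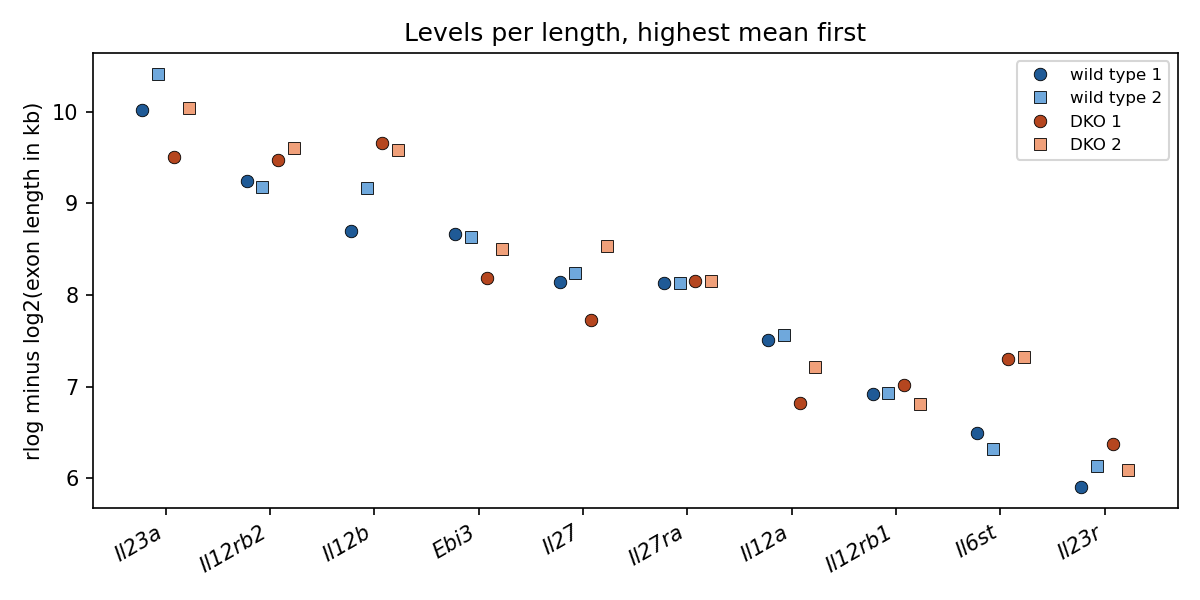
Level per length (vertical axis, rlog minus the log2 of the exon length in kb) of the 8 genes and of the receptor chains Il27ra and Il6st, ordered by mean, 1 point a sample. Il23a has the highest mean, and with this measure of length the DKO points of Il12b (orange) reach the range of Il23a.

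The partner chains and signal transducers of these receptors were tested as a list of 10 genes. Il27ra and Il6st form the receptor of interleukin 27, the Janus kinases Jak1, Jak2 and Tyk2 attach to the receptor chains, and Stat3 and Stat4 carry the signal. In limma 1 of the 10 rose and 0 fell, while 2 had an unadjusted p under 0.05, with a median difference of 0.023. The share of all tested genes with such an unadjusted p was not computed, here or for the lists below. Il6st, which encodes gp130, the chain also used by interleukin 6 and its relatives, was at 9.96 and 9.80 in wild type and at 10.78 and 10.80 in DKO. Both DKO samples were higher, by 0.91 on average (SE 0.0841, adjusted p = 4.3e-05), and the gene passed under all 11 alternatives. Stromal cells express gp130 widely, and their genes rose in the same samples: 11 of 11 genes of fibroblasts and smooth muscle and 9 of 9 of endothelium rose, with medians of 0.92 and 1.27. With no filter on low values these counts were 1 and 3, and with a robust variance 6 fibroblast and smooth muscle genes rose. Their part in the rise of Il6st was not tested. Il27ra stood between 9.94 and 9.96 in the 4 samples, a difference of 0.017 (adjusted p = 0.927). Of the others, Stat3 (0.21, adjusted p = 0.178) and Socs1, an inhibitor of the kinases (-0.20, adjusted p = 0.363), did not pass in limma.

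Genes that interleukin 12 is known to induce or maintain in lymphocytes did not pass as single genes. Of 12, among them Ifng, the T-bet gene Tbx21 and the interleukin 18 receptor chains, 0 passed in limma and 5 had an unadjusted p under 0.05. Ifng was at 12.42 and 12.57 in wild type and at 12.76 and 12.72 in DKO, a difference of 0.24 (SE 0.0912, adjusted p = 0.11). Its groups did not overlap. Il18rap had a difference of 0.25 (adjusted p = 0.0947), and Runx3, a transcription factor of cytotoxic and helper cells, one of -0.30 (adjusted p = 0.0551).

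Of 10 genes linked to the response to interleukin 23, 1 fell and 0 rose in limma, with a median difference of -0.045. The gene that fell was Batf, a transcription factor required by interleukin 17-producing T cells, from 10.80 and 10.93 to 10.50 and 10.62 (-0.30, SE 0.085, adjusted p = 0.0357, and 0.00503 to 0.335 over the alternatives). Il17a was at 9.04 and 9.56 in wild type and at 9.19 and 8.60 in DKO, and Il22 at 11.83 and 11.91 in wild type and at 12.68 and 11.89 in DKO. Neither pair of groups separated. The differences of Csf2 (0.40, adjusted p = 0.0901), Il17f (0.37, adjusted p = 0.16) and Il22 (0.41, adjusted p = 0.193) did not pass.

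Among 9 genes induced by interleukin 27 or marking the T cells it acts on, 1 fell and 0 rose, with a median of -0.17. Il10, the anti-inflammatory cytokine gene, went from 10.85 and 11.26 to 10.52 and 10.75 (-0.42, SE 0.126, adjusted p = 0.0491 in limma). Its groups did not overlap, but leaving out wild-type replicate 2 gave -0.21 (adjusted p = 0.453), and its adjusted p ran from 0.000813 to 0.453 over the alternatives. Cd274, which encodes the PD-1 ligand PD-L1 (-0.24, adjusted p = 0.126), Il21 (-0.20, adjusted p = 0.257) and Ahr (-0.17, adjusted p = 0.278) did not pass.

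A list of 16 genes was chosen as inducers of the subunit genes in antigen-presenting cells. Some of them also serve as markers in the cell type lists, such as Spi1 for haematopoietic identity and Batf3 for type 1 dendritic cells. Of the 16, 4 fell and 0 rose in limma, with a median of -0.066. Cebpb, a factor of myeloid cells, went from 12.13 and 12.02 to 11.01 and 11.63 (-0.75, SE 0.157, adjusted p = 0.00708), with its lowest value in DKO replicate 1, and missed the threshold with a robust variance (adjusted p = 0.135) and with no filter (adjusted p = 0.235). Without DKO replicate 1 its difference was -0.44. Spi1, which encodes the myeloid factor PU.1, fell from 11.16 and 10.97 to 10.37 and 10.60 (-0.58, SE 0.0988, adjusted p = 0.00204). The bacterial sensor Nod2 fell by 0.39 (adjusted p = 0.011, but 0.133 with wild-type replicate 1 left out), and Irf5, a factor of Toll-like receptor signalling, fell by 0.32 (adjusted p = 0.0226, and 0.00246 to 0.191 over its alternatives). The other 12 did not pass. Some of them were picked for naming after their values were seen. These were Rel, the NF-kB subunit, at -0.031 (adjusted p = 0.892), Irf8 at 0.089 (adjusted p = 0.553), Irf1 at 0.033 (adjusted p = 0.872) and Cd40 at 0.13 (adjusted p = 0.336). With the smallest p among the rest, Id2 (-0.32, adjusted p = 0.0737), Nfkbiz (-0.21, adjusted p = 0.159) and Ticam1 (-0.16, adjusted p = 0.275) did not pass. Over the 56 genes of the 5 lists, 7 passed (12.5%, against 14.8% of all tested genes). By direction these were 1 rise and 6 falls, while 9.92% of all tested genes rose and 4.85% fell. Falls were thus the more frequent in the lists, and rises over all tested genes. With quantile normalization the lists held 5 rises and 3 falls.

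**Figure D5:**
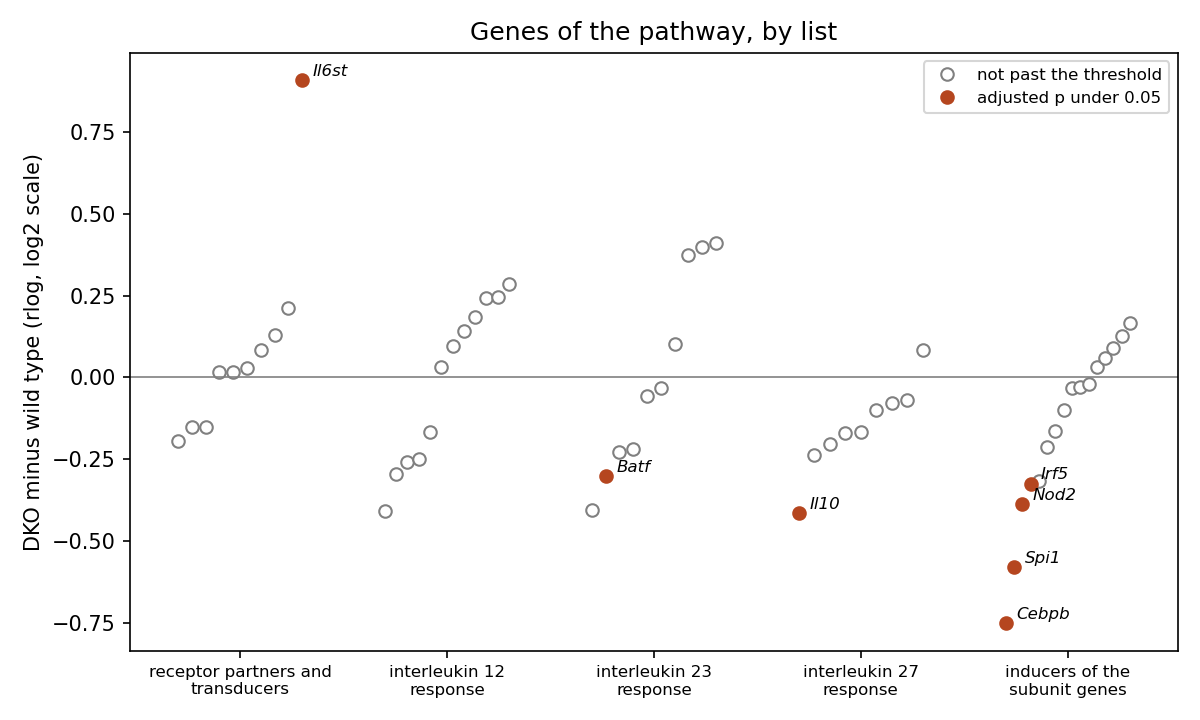
The rlog difference of DKO from wild type (vertical axis, log2) for each gene of 5 lists of the pathway, sorted within a list. Filled points passed at an adjusted p under 0.05: Il6st is the 1 rise, and Batf, Il10, Irf5, Nod2, Spi1 and Cebpb are the 6 falls.

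Markers of the cells that can make these cytokines moved in different directions. All 13 neutrophil genes fell, with a median of -1.34, and their summed level went from 15.96 to 16.04 in wild type down to 14.45 to 14.90 in DKO, on the log2 scale. Lcn2 (-1.25, adjusted p = 1.03e-05), Ltf (-2.22) and Ngp (-2.26) had the smallest p. Of 11 macrophage genes 7 fell and 1 rose, with summed levels of 14.64 to 14.66 in wild type and 14.10 to 14.32 in DKO, and of 9 monocyte genes 3 fell and 2 rose (14.64 to 14.70, and 14.37 to 14.56). None of these markers was at 0. With no filter on low values 1 neutrophil gene and 1 monocyte gene fell and 0 macrophage genes passed, and with a robust variance 10 neutrophil genes fell. Leaving out wild-type replicate 1 left 4 falls among the macrophage genes, and leaving out DKO replicate 1 gave 6 falls among the monocyte genes. The part of these cells in the results of Il12a and Il12b was not tested.

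Markers of conventional and mature dendritic cells had smaller median differences than the neutrophil genes (-1.34). These medians were 0.089 for type 1, 0.067 for type 2 and 0.098 for mature cells. Of 9 tested genes of type 1 conventional dendritic cells 0 passed in limma (3 had an unadjusted p under 0.05), and the summed level of the list was 12.87 to 12.88 in wild type and 12.89 to 12.95 in DKO. Their defining genes Xcr1 (5.37 to 5.47 over the samples) and Clec9a (5.99 to 6.43) were low but not at 0. In the list of type 2 cells, Mgl2 (0.58, adjusted p = 0.0234) and Zbtb46, a factor of conventional dendritic cells (0.30, adjusted p = 0.0453), rose, while Itgam (-0.84) and Sirpa (-0.46), which other myeloid cells also express, fell, and the sum was 13.68 to 13.70 in wild type and 13.46 to 13.54 in DKO. In the list of mature dendritic cells 1 of 11 rose, the chemokine Ccl22 (0.46, adjusted p = 0.00897), and 1 fell, Samsn1 (-0.37, adjusted p = 0.0162), with sums of 14.27 to 14.38 and 14.22 to 14.32. These calls depended on single samples and settings. Of the 2 rises among the type 2 genes, 0 passed without wild-type replicate 1, with quantile normalization or with no filter, and 1 passed without wild-type replicate 2, without DKO replicate 1 or with no trend, while the 2 falls were lost with no filter. Among the mature genes 0 rose without wild-type replicate 1, 0 fell without wild-type replicate 2 or with quantile normalization, 2 rose without DKO replicate 1 or with sample weights, and 0 passed with no filter. Among the type 1 genes 2 rose without DKO replicate 1 and 1 without wild-type replicate 2, and 1 fell without DKO replicate 2, with a robust variance, with median centring or with sample weights. The part of these cells in the rise of Il12b was not tested.

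Among cells that carry the receptors, 0 of 14 genes of T cell identity passed in limma (5 had an unadjusted p under 0.05), with a median of -0.11 and summed levels of 15.83 to 15.89 in wild type and 15.65 to 15.81 in DKO. Of 10 genes of natural killer and CD8 T cells 4 rose, with a median of 0.36 and sums of 12.97 to 13.05 and 13.25 to 13.53. These included the receptors Klra4 (0.68, adjusted p = 0.0111), Klrk1 (0.33, adjusted p = 0.0146) and Klre1 (0.40, adjusted p = 0.0316). Without wild-type replicate 1 only 1 of the 10 rose, and with no filter 0. The part of these cells in the rise of Il12rb2 was not tested. In the list of type 3 innate lymphoid and gamma delta T cells, which carry Il23r, 2 of 10 genes rose, Tmem176a (0.35, adjusted p = 0.0176) and Tmem176b (0.36, adjusted p = 0.0212), and 2 fell, the arginase gene Arg1 (-0.58, adjusted p = 0.0191) and the T cell receptor constant segment Tcrg-C1 (-0.34, adjusted p = 0.0473). In this list 0 rose without wild-type replicate 1, 0 fell without wild-type replicate 2, 1 fell with no trend and 0 passed with no filter. Of 7 genes of regulatory T cells, a described source of interleukin 35, only Il2ra rose (0.28, adjusted p = 0.0352), and Foxp3 was at 6.52 and 7.60 in wild type and at 7.02 and 7.43 in DKO. In limma 0 of 4 tested B lineage genes, 0 of 8 epithelial genes and 0 of 6 tested mitochondrial transcripts passed (1, 1 and 0 had an unadjusted p under 0.05). Of 7 tested genes of plasmacytoid dendritic cells 1 rose and 3 fell, with differences from -1.11 to 0.38. Of 9 tested mast cell genes 4 rose and 1 fell, and of 6 genes of haematopoietic identity 2 fell. With no filter 0 genes passed in any list of this paragraph. Leaving out wild-type replicate 1 left 0 rises among the regulatory T cell genes and gave 1 fall in the B lineage, and leaving out wild-type replicate 2 left 0 rises among the plasmacytoid genes and gave 2 among the regulatory ones. Without DKO replicate 1 there were 2 falls in the B lineage, 1 in the epithelium and 2 rises among the regulatory genes. Without DKO replicate 2 there were 5 falls among the T cell identity genes, 7 rises among the mast cell genes, 4 falls among the haematopoietic genes, 3 rises among the mitochondrial transcripts, and 2 rises among the regulatory genes. Among the settings, 0 regulatory genes rose with no trend and 2 with quantile normalization, and 4 haematopoietic genes fell with a robust variance.

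The genes of like level whose course over the 4 samples was closest to each member that passed were found by the root mean squared distance of centred values. For Il12b, among 3377 genes, they were Lpl (0.0549), Lima1 (0.12) and Mmp2 (0.125). For Il12a, among 4163 genes, they were Tma16 (0.0582), Tff1 (0.0665) and Fcrlb (0.0693). For Il12rb2, among 1926 genes, they were Aplp2 (0.0351), Lmna (0.0366) and Ece1 (0.0432). With 4 samples such nearness is a description only. Lpl, which encodes lipoprotein lipase, followed Il12b even in the gap between the wild-type samples, at 9.46 and 9.95 in wild type and 10.32 and 10.23 in DKO.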

How the data were processed

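Stranded mRNA libraries were sequenced, per the labels' protocols, from 2 samples in each of 2 groups, numbered in the order of their entries. Values are on the log2 scale as deposited, regularized by DESeq2 (rlog), per the name of the table and the submitters' processing notes. Those list GRCm38, featureCounts of Subread 1.5.2, STAR 2.5.4a, BWA 0.7.14-r1136, cutadapt 1.9.1 and bcl2fastq 2.17.1.14. Parameters, annotation and the DESeq2 version were not given in the sources used here. GENCODE M21 on GRCm38 gave symbols for 48144 of 48526 identifiers. The 2 columns that match no labelled sample were not used, but may have entered the shrinkage. Without counts, no counting interval is given.

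The 13528 genes with a mean of 4 or more were fitted in limma 3.58.1 (R 4.3.3) by group, with moderated variances (trend on the mean, 8.9 prior and 2 residual degrees of freedom), two-sided, with Benjamini-Hochberg adjustment at 0.05. The fit was tested on simulated data. Exon length is the union of a gene's exons. A list's summed level is the log2 of the sum of unlogged values. Members, 5 pathway lists and 17 cell type lists were chosen with earlier results of these data known, and motifs after the windows were seen. Named are the members, pathway genes that passed and up to 3 per list that did not, up to 3 that passed in a described cell type list, the 3 nearest genes, and others chosen after their values were seen (Ptprc, Col3a1, Epcam, Xcr1, Clec9a, Il27ra, Il17a, Rel, Irf8, Irf1, Cd40, overlapping genes). A few genes under this rule are not reported here. Alternatives were no filter, a minimum of 6, no trend, robust variance, median centring, quantile normalization, sample weights, each sample left out, and the longest transcript as length. Python 3.11.15 with pandas 2.3.3, scipy 1.17.1 and matplotlib 3.10.9 made the tables and figures.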

Additional observations from a re-analysis of the deposited data

How the results depend on the processing

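No paired analysis was possible because the labels carry no replicate numbers shared between the groups. Over all genes, 1342 rises and 656 falls became 181 and 25 with no filter. There Il12a, Il12b and Il12rb2 did not pass (adjusted p = 0.222, 0.185 and 0.137 in limma) and 0 members were called. With the filter, 5 of 8 members had an unadjusted p under 0.05 in limma. The share of all tested genes under that value was not computed, so this count is a description. With a minimum of 6 the rises were 878. Without single samples there were 1008 to 1660 rises and 324 to 1222 falls over all genes, 1 to 3 rises and 0 to 4 falls among the 8 members, and 1 to 6 rises and 3 to 12 falls among the 56 pathway genes. Such a fit takes a gene's own spread from the group that keeps both samples. The pathway counts of 1 rise and 6 falls were 5 and 3 with quantile normalization, 3 falls with no trend and 0 falls with no filter. Il27 (-0.056) lay between -0.46 and 0.35 and Il12rb1 (-0.01) between -0.11 and 0.093 when single samples were left out. With the longest transcript as length, the level per length was 10.38 for Il23a, 9.72 for Il12rb2, 7.66 for Il12a and 7.43 for Il12rb1, in the same order. Irf5 did not pass under 6 of its alternatives. The causes were not tested. Dropping the filter changes both the number of genes adjusted over and the variances estimated from them, and their parts were not separated. Rlog files carry no depth, so low genes such as Il23r have an unknown counting error.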
